A study of Mus musculus with 2 samples.

Results

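G2 and mitotic cells were defined by a rule on the measured counts of 2 single-cell libraries from the mouse subventricular zone, a layer beside the lateral ventricles in which neural stem cells persist into adult life. A barcode was kept with at least 5000 UMIs (unique molecular identifiers, each counting 1 captured transcript) and at most 20% of its UMIs from mitochondrially encoded genes. Each kept barcode received 3 scores, the share of its UMIs from 7 mitosis genes (the M score: Aspm, Prc1, Cenpf, Cenpe, Ube2c, Nusap1 and Plk1), from 7 genes of S phase entry (Cdc6, Cdt1, Ung, Hells, Mcm4, Msh6 and Dtl) and from 5 histone genes of S phase (Hist1h2ap, Hist1h1b, Hist1h2ae, Hist1h1a and Hist1h1d). Members had an M score in the top 12% of the pooled barcodes and a higher rank for M than for the other scores. The rule picked 870 of 7430 kept barcodes.

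A dividing cell first copies its genome in S phase, prepares in G2, and then condenses and separates its chromosomes in mitosis. Entry into mitosis is driven by the kinase Cdk1 with its B-type cyclins, while the Aurora and Polo-like kinases, kinesin motors and kinetochores build the spindle and attach chromosomes to it. When every chromosome is attached, the anaphase-promoting complex with its activator Cdc20 marks cyclin B and securin for destruction, which frees the protease separase to cut the cohesin rings that hold sister chromatids together. In the adult subventricular zone, dividing cells are activated stem cells and the transit-amplifying progenitors that descend from them.

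The aged library came from C57BL/6 mice of 15 to 18 months and the young library from C57BL/6 mice of 2 months. For each age, tissue of 5 mice was pooled into 1 library of the 10x Genomics 3′ version 3 chemistry, and the cells, labelled neural stem cells, were held in proliferation medium before loading. The labels give neither a substrain nor the time in medium. With 1 library per age there is no spread between samples, so no test of age was possible, and a difference between ages and a difference between these libraries cannot be told apart. All intervals below are 95% intervals for counting error alone.

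The members numbered 464 of 3664 aged barcodes, a share of 12.7% (11.6 to 13.8, exact Clopper-Pearson interval), and 406 of 3766 young barcodes, a share of 10.8% (9.81 to 11.8). With the ranks taken within each library, which fixes the size of the top class in each, the shares were 11.9% in the aged and 11.4% in the young library. The members held 15924977 aged and 12899336 young UMIs. Their median depth was 34304.5 UMIs in the aged and 31911.5 in the young library, 1.39 and 1.36 times the median of the other cells of each library. Their median mitochondrial share was 8.30% aged and 8.26% young, against 9.42% and 9.48% in the other cells of the aged and the young library. Of the barcode sequences, 4 occurred in both libraries, and 2 members carried one of these. The rest of the kept barcodes comprised 398 aged and 404 young cells with a high histone score (histone-high S phase), 375 aged and 423 young cells with a high S entry score, and 2427 aged and 2533 young cells in no score class.

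The rule cuts a continuous score. The lowest M score above the rank limit was 3819 UMIs per 1000000 UMIs of the cell (CPM), and 148 barcodes lay within 1 percentile rank of the limit. The 67 cells just inside had 474 CPM of Ccnb1 (cyclin B1), 411 CPM of Cdc20 and 1130 CPM of Top2a (topoisomerase 2 alpha, which untangles chromosomes). The 74 cells just outside had 428, 345 and 1131 CPM of the same genes. The class is therefore defined by a limit on a range of scores. Cells of neighbouring ranks are alike under any such limit, so these values cannot show whether a separate type exists. Above the limit, 22 further barcodes were left out because a score of S phase ranked higher.

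Promoter sequences are shown first because many of the genes that went with the class share short motifs known from cell cycle genes: TTTGAA and its variant TTCGAA, the cell cycle genes homology region that the DREAM and MuvB complexes bind, and CCAAT, the box that NF-Y binds. The sequences are the 100 bases upstream of the annotated start, from RefSeq on GRCm38.p6, written 5′ to 3′ on the strand of the gene, with matches to the motifs on either strand in capitals. Gas2l3 (chr10:89443968-89444067, minus strand), which links actin and microtubules, led the genes outside the rule. Prc1 (chr7:80294376-80294475, plus strand), the microtubule bundler of the central spindle, and Ube2c (chr2:164769829-164769928, plus strand), the ubiquitin-conjugating enzyme of the anaphase-promoting complex, belong to the M score. Kpna2 (chr11:106999526-106999625, minus strand) encodes an importin alpha, and Cdc20 (chr4:118437344-118437443, minus strand) and Cdk1 (chr10:69352913-69353012, minus strand) are named above. Pttg1 (chr11:43425982-43426081, minus strand), which encodes securin, is shown because its values set it apart from all of them. The other printed genes were picked by name, and each matches TTTGAA or TTCGAA and also CCAAT within the 100 bases. They are examples and do not stand for all leading genes. Cdk1 is not among the 30 genes that led the class, and Prc1 is shown at 1 of its 2 listed starts. The GENCODE annotation gives Pttg1 the span chr11:43420250-43426251, so its printed stretch, upstream of the RefSeq start, lies inside the gene there.
Gas2l3: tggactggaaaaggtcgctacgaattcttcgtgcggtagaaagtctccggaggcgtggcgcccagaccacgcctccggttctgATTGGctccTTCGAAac
Prc1: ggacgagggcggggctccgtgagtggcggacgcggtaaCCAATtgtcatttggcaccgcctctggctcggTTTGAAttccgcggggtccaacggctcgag
Ube2c: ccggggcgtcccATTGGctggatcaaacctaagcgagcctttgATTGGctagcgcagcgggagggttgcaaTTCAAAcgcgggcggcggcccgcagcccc
Kpna2: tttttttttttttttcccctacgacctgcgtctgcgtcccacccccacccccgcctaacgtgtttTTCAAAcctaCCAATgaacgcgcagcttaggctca
Cdc20: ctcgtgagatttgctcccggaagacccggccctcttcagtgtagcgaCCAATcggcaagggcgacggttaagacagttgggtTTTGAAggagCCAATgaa
Cdk1: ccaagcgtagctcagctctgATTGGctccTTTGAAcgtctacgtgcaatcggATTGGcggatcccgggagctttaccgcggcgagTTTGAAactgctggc
Pttg1: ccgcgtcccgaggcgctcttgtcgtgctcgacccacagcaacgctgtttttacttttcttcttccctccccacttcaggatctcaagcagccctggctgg

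In the whole window of 250 bases before to 50 after the start, TTTGAA or TTCGAA on either strand occurred in 21 of the 26 genes with a listed promoter among the 30 that led the class (80.8%). The motif occurred in 98 of 161 promoters of all genes at least 2-fold higher in members of both libraries (60.9%), and in 1040 of 6411 promoters of all genes compared (16.2%). CCAAT was in 21 of the 26 (80.8%), in 115 of the 161 (71.4%) and in 2772 of the 6411 (43.2%). Both kinds together were in 18 of the 26 (69.2%), in 75 of the 161 (46.6%) and in 450 of the 6411 (7.02%). Over all 27025 genes of the promoter table, 21.7% held TTTGAA or TTCGAA and 41.1% held CCAAT. In all these counts a gene with several listed starts counted if the window of any start held the motif. The 30 leading genes and the genes at least 2-fold higher both include the 7 genes of the M score. Those were high through the rule, so the motif shares rest partly on genes picked in advance as mitotic. The window of Pttg1 held none of the 3 letter strings. That window lies inside the gene in the GENCODE annotation, so it does not describe the letters upstream of the GENCODE start. A match describes the letters and is not a measured binding site, and no match says only that these letters are not in this window.

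The members carried the mitotic programme beyond the 7 genes that chose them. All 16 markers of G2 and mitosis outside the rule were at least 2-fold higher in members than in the other cells of both libraries, where 2.52% of 8253 compared genes were. These values come from the same cells that the rule sorted, so they describe what went with the rule and are no test. The ratios of the 16 ran between 3.13 and 6.86 in the aged library and between 2.94 and 6.81 in the young library. Each of the 16 was highest in the members among the 4 classes of either library. For 14 of the 16 the histone-high S phase cells came second, and for 14 the S entry cells were lowest, in either library.

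Ccnb1 had 612 CPM in aged and 624 CPM in young members, against 98.1 and 105 CPM in the other cells of the aged and the young library. Cdk1 stood at 657 CPM in aged and 650 CPM in young members, against 164 and 167 CPM. Ccna2 (cyclin A2), which acts from S phase into early mitosis, was at 286 and 280 CPM in aged and young members and at 75.4 and 75.8 CPM in the other cells. The cyclins thus differed far more between members and other cells than between the libraries. Aurka (Aurora A, a kinase of the spindle poles) had 158 CPM in aged and 179 CPM in young members, against 23.1 and 26.3 CPM. Top2a had 1499 and 1410 CPM in aged and young members, against 340 and 322 CPM in the other cells. In histone-high S phase cells Top2a was already at 900 CPM aged and 855 CPM young, while Ccnb1 had 119 and 138 CPM there.

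**Figure D1:**
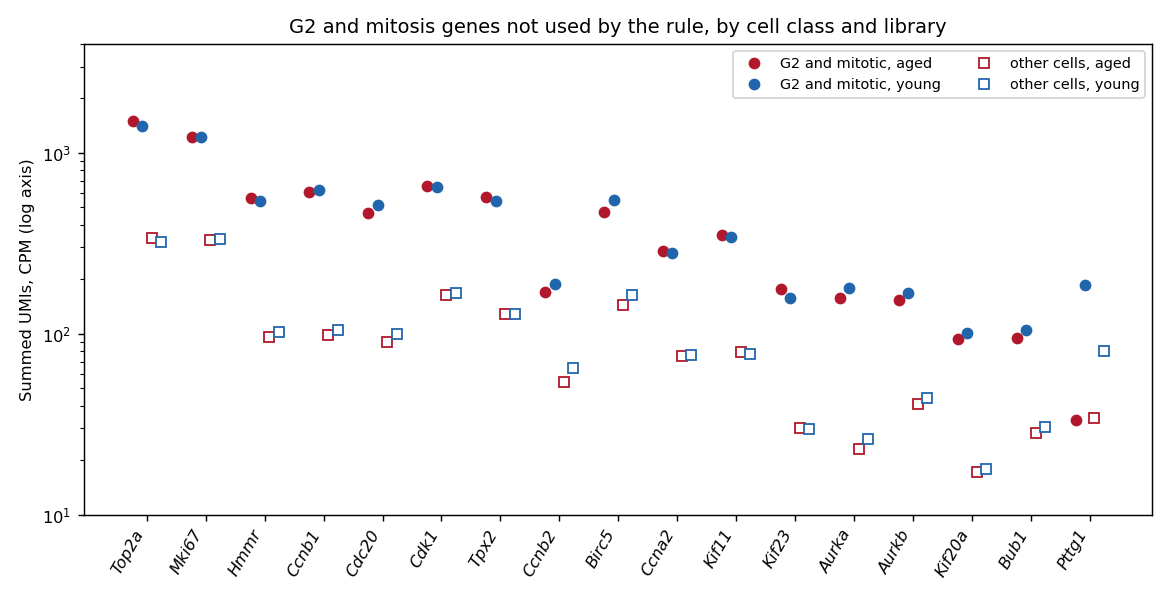
Summed UMIs as CPM (log axis) of the 16 markers of G2 and mitosis outside the rule and of Pttg1, in G2 and mitotic cells (filled circles) and all other kept cells (open squares) of the aged (red) and young (blue) library. The filled circles of both libraries lie close together and above the squares for each of the 16 markers, while for Pttg1 the aged circle is at 33.3 CPM beside an aged square at 34.3 CPM and the young circle is at 185 CPM.

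Cells counted by detection gave the same picture. A Ccnb1 UMI was found in 91.8% of aged and 95.1% of young members once each cell had been thinned to 5000 UMIs, which left out no kept cell, against 15.7% of aged and 15.6% of young S entry cells. Without thinning, all members of both libraries had one (100%), as had 44.0% of aged and 49.4% of young S entry cells. Free RNA in droplets can give single UMIs in any cell, and the S entry share is given as the level in a class at another stage of the cycle, with a median depth of 24452 UMIs aged and 23574 UMIs young.

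The genes 2-fold higher in members were largely shared by the libraries. Aged members had 228 such genes (2.76% of those compared) and young members 217 (2.63%), of which 208 were in both, 91.2% of the aged and 95.9% of the young set. Of these 208, 119 were on a list of the cell cycle or cell type genes examined here. The 208 include the 7 genes of the M score, which were high through the rule. None of the 208 was 1.5-fold higher in aged members and 0 were 1.5-fold lower, where 1.26% and 0.847% of all 8267 compared genes were, so these counts lie near the shares over all genes. Their log2 ratios of aged over young members ran between −0.36 and 0.47, with a median of 0.03, against a median of 0.01 over all genes.

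Gas2l3 had the highest ratio outside the rule, with 187 CPM in aged and 184 CPM in young members and 20.3 and 21 CPM in the other cells. Kif14, a kinesin of the midbody, had 66.9 and 63.6 CPM in aged and young members, against 8.06 and 8.24 CPM. Nek2, a kinase that splits centrosomes, had 91.9 and 94.7 CPM, against 13.1 and 12.8 CPM. Among the genes of this group with less familiar roles were Prr11 (85.8 and 83.0 CPM in aged and young members, 14.7 and 14.5 CPM in the other cells), Fam83d, a spindle protein (94.3 and 94.1 CPM, against 16.6 and 19.3 CPM), and G2e3, named after a G2 and M phase ubiquitin ligase (176 and 172 CPM, against 33.2 and 35.4 CPM). Cep89, a centrosomal protein of the distal appendages, was at 65.4 CPM in aged and 68.1 CPM in young members and at 11.9 and 12.5 CPM in the other cells.

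Taken by role, the motors stood highest. Of 14 mitotic kinesins, 13 were 2-fold higher in members of both libraries, where 2.52% of all compared genes were, with a median log2 ratio of 2.22 in the aged and 2.13 in the young library. The exception was Kif2a, which had 125 and 114 CPM in aged and young members and 110 and 103 CPM in the other cells. Its relative Kif2c, which removes wrongly attached microtubules at centromeres, had 126 and 136 CPM, against 19.9 and 21.2 CPM. Kif23, a motor of the central spindle, had 177 and 158 CPM in aged and young members, against 30.1 and 29.6 CPM. Among the 13 was Cenpe of the M score, which was high through the rule.

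At the same threshold and beside the same 2.52% of all genes, spindle and microtubule factors followed with 20 of 30 genes, the chromosomal passenger complex and mitotic kinases with 11 of 16, mitotic cyclins and their regulators with 12 of 20 and condensins with 5 of 8. Smc4, a core condensin subunit, had 693 and 691 CPM in aged and young members, against 220 and 219 CPM in the other cells. Of 35 genes of the centromere and kinetochore, 20 passed, among them Ndc80, which grips microtubules (136 and 125 CPM in aged and young members, 32.0 and 31.8 CPM in the other cells). Of 12 genes of the spindle assembly checkpoint, which holds anaphase back until chromosomes are attached, 6 passed. Ttk, the kinase that starts that signal, had 76.1 and 69.0 CPM in members and 20.6 and 21.5 CPM in the other cells of the aged and the young library. Of the M score, Prc1 and Nusap1 were counted among the spindle factors, Plk1 among the kinases and Cenpe in the checkpoint. These were high through the rule.

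Fewer genes passed in the remaining lists, namely 4 of 19 genes of the anaphase-promoting complex and its regulators, 4 of 18 of securin, separase, cohesin and shugoshin, 7 of 18 of centrosomes and centrioles, 10 of 24 of cytokinesis and 3 of 24 of the nuclear envelope and pores, again beside 2.52% of all genes. In the first group the 4 were Ube2c, Ube2s, Cdc20 and Fzr1, which are activators and ubiquitin-conjugating enzymes and not core subunits. Fzr1 (Cdh1), the activator that takes over from Cdc20 at the end of mitosis, had 117 CPM in aged and 113 CPM in young members, against 26.1 and 28.5 CPM in the other cells. Over the 11 lists of mitotic machinery together, 101 of 201 compared genes passed, with a median log2 ratio of 1.11 in the aged and 1.05 in the young library. The 101 include Ube2c, Cenpe, Prc1, Nusap1 and Plk1 of the M score, which were high through the rule. Prc1 is also 1 of the 10 genes of cytokinesis.

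Genes lower in members included many of S phase and some from outside the cycle. At least 2-fold lower in both libraries were 36 of 8253 genes (0.436%). Among the 36 were 4 genes of the S phase entry score and 5 of the histone score, which the rule used to keep cells out of the class. Hist1h1b, a linker histone that the rule used, had 133 CPM in aged and 150 CPM in young members, against 390 and 419 CPM in the other cells. Of genes the rule did not use, Slbp, which binds histone mRNA, had 42.9 and 48.3 CPM in aged and young members, against 98.1 and 98.9 CPM. Mcm3, a subunit of the replicative helicase, had 67.4 and 66.3 CPM, against 133 and 145 CPM. Its ratio of 0.507 in the aged library fell just short of 2-fold, so Mcm3 is not among the 36. Of 38 genes of replication licensing and forks, 5 were 2-fold lower in members and 0 were 2-fold higher.

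Apoe, the lipid carrier of astroglia, was at 128 CPM in aged and 118 CPM in young members, against 315 and 330 CPM in the other cells. Apln, the peptide ligand apelin, had 26.0 CPM in aged and 48.2 CPM in young members, against 61.7 and 107 CPM. Pdlim4, a LIM domain protein of the actin cytoskeleton, had 21 and 18.3 CPM, against 58.7 and 54.5 CPM. The members were thus lower than other cells in a few genes outside the cell cycle, alike in both libraries.

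The label of neural stem cells could be checked in the members. Sox2, a transcription factor of neural stem and progenitor cells, had 337 CPM in aged and 334 CPM in young members, and Nes (nestin) 522 and 572 CPM. Egfr, the receptor of a growth factor in stem cell medium, had 176 CPM in aged and 163 CPM in young members. Olig2, shared by oligodendrocyte precursors and transit-amplifying progenitors, had 473 and 538 CPM in aged and young members. The astrocyte marker Gfap was near 0, at 0.440 and 0.465 CPM in aged and young members.

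Markers of other cells were nearly absent. The summed level in members was 6.91 CPM aged and 8.30 CPM young for mature oligodendrocytes, 20.1 and 14.3 CPM for mature neurons, 0.628 and 2.33 CPM for microglia, 1.95 and 1.16 CPM for endothelium, 5.46 and 4.42 CPM for pericytes, 6.53 and 8.68 CPM for ependyma and 2.26 and 3.02 CPM for fibroblasts. Erythroid markers had 0 UMIs in members of both libraries. The lists of oligodendrocyte precursors (2435 CPM in aged and 2586 CPM in young members) and of astrocytes or quiescent stem cells (1609 and 1153 CPM) were expressed. Neuroblast markers summed to 67.4 CPM in aged and 92.6 CPM in young members, mostly from Cd24a.

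**Figure D2:**
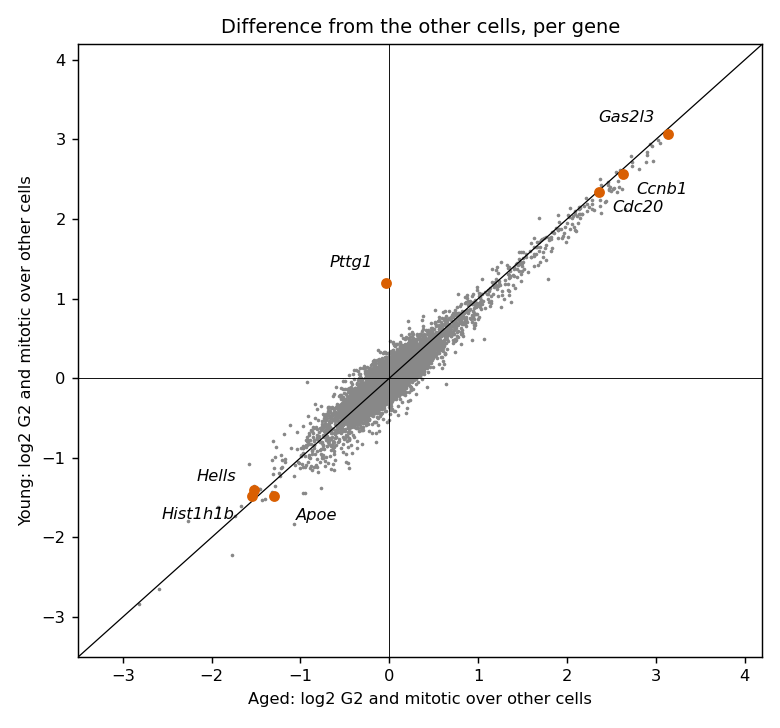
Log2 ratio of G2 and mitotic cells over the other cells for each of the 8253 compared genes, in the aged library (x axis) and the young library (y axis), with the line of equal values. The genes follow the line from Hells and Hist1h1b at the low end to Gas2l3 at the high end, and Pttg1 lies away from it at −0.04 aged and 1.20 young.

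Securin was the exception among the mitotic genes. Pttg1 (ENSMUSG00000020415), the inhibitor of separase, counted 530 UMIs in aged and 2392 UMIs in young members, or 33.3 and 185 CPM. That is a ratio of aged over young of 0.179 (0.163 to 0.197), 5.57-fold lower in aged members (5.07 to 6.13). Of 8267 genes compared between aged and young members, 1 had a lower log2 ratio. In the other cells it stood at 34.3 CPM aged and 80.4 CPM young. Members therefore exceeded the other cells 2.31-fold (2.20 to 2.42) in the young library, and the ratio was 0.971 (0.884 to 1.07) in the aged library. With a mitochondrial limit of 10% the log2 ratio of members over other cells was 0.21 in the aged and 1.01 in the young library. The difference between the log2 ratios, −1.24, was the lowest of the 8253 genes. The gene was chosen for description with an earlier result on it known, and the difference was not tested, since each age has 1 library.

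Within the classes, aged cells with high histone score had 19.2 CPM of Pttg1 and young ones 43.8 CPM. Cells entering S phase had 20.1 CPM aged and 49.8 CPM young, and cells in no score class 39.0 and 91.8 CPM. The aged library was lower in all 4 classes, and the gap was widest in the members. After thinning, 12.7% of aged members (9.82 to 16.1) had a Pttg1 UMI, against 54.2% of young members (49.2 to 59.1). In S entry cells these shares were 7.73% aged and 18.7% young. Without thinning they were 55.8% of aged and 87.4% of young members, and 32.5% of aged and 50.4% of young S entry cells.

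Along the M score the libraries parted step by step. All kept barcodes were placed in 6 bands of the pooled M score rank, at percentiles 0 to 25, 25 to 50, 50 to 75, 75 to 88, 88 to 94 and 94 to 100. From the lowest band to the highest, Pttg1 stood at 39.7, 32.6, 30.1, 35.0, 31.3 and 34.4 CPM in the aged library. In the young library the same bands had 37.4, 70.8, 102, 126, 167 and 198 CPM. In the lowest band the libraries overlapped within counting error, and the young level climbed with every band while the aged level stayed between 30.1 and 39.7 CPM.

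Its neighbours in the pathway climbed in both libraries. Cdc20 stood at 8.39, 21.2, 120, 289, 410 and 509 CPM over the bands of the aged library. Over those of the young library Cdc20 was at 9.36, 21.7, 129, 321, 444 and 571 CPM. Ccnb1, the other target of the complex, went through 10.4, 27.3, 124, 318, 512 and 694 CPM in the aged library and 7.86, 30.9, 126, 339, 548 and 694 CPM in the young library. Espl1 (separase), the protease that securin holds, had 38.3 CPM in aged and 38.8 CPM in young members, against 9.56 and 9.90 CPM in the other cells. Rad21, the cohesin subunit that separase cuts, had 424 and 376 CPM in aged and young members, and Sgol2a (shugoshin 2), which protects cohesin at centromeres, 214 and 213 CPM.

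**Figure D3:**
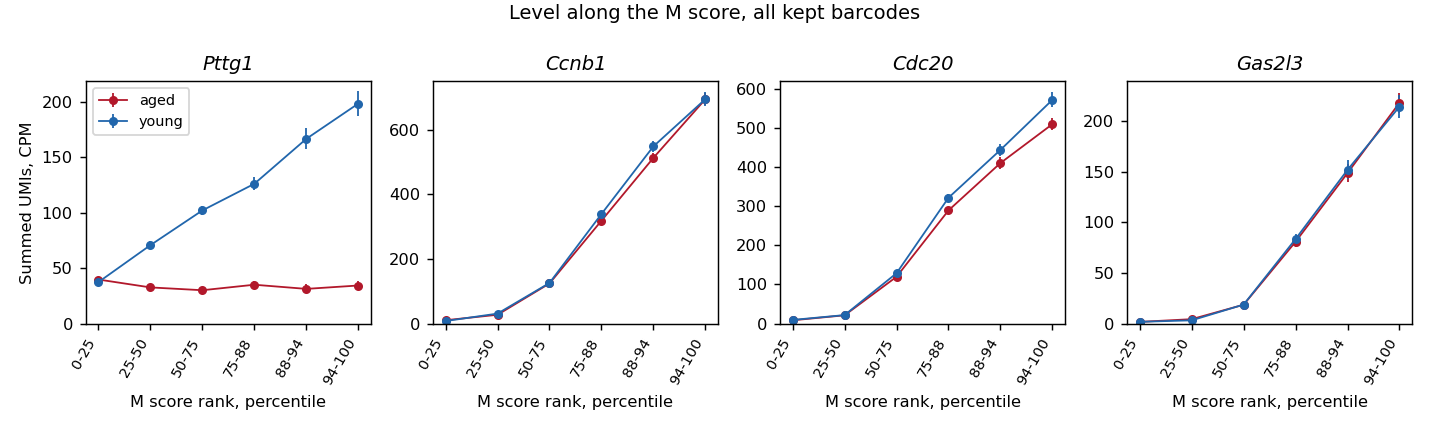
Summed UMIs as CPM in 6 bands of the pooled M score rank (x axis, percentiles) for Pttg1, Ccnb1, Cdc20 and Gas2l3, in the aged (red) and young (blue) library, with 95% Poisson intervals for counting error. Ccnb1, Cdc20 and Gas2l3 climb in both libraries, while Pttg1 reaches 198 CPM in the young library and 34.4 CPM in the aged library in the top band. Cdc20 was lower in the aged library there, at 509 CPM against 571 CPM, with intervals apart.

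Pttg1 was not alone in setting the libraries apart, since 104 genes (1.26%) were at least 1.5-fold higher in aged members and 70 (0.847%) at least 1.5-fold lower. Wdfy1 and Nnt, both outside the cell cycle, are 2 examples that differed in members and other cells alike. Wdfy1, an endosomal protein gene, had 53 CPM in aged and 10.9 CPM in young members, against 59.7 and 10.5 CPM in the other cells. Nnt, the mitochondrial transhydrogenase gene that is partly deleted in the C57BL/6J substrain, had 21.2 and 12 CPM in aged and young members and 21.2 and 11.8 CPM in the other cells. The part of the genetic background of the mice in the Pttg1 difference was not tested.

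Among the genes of the mitotic machinery, Pttg1 alone reached 1.5-fold by age. Of the 201 compared genes on the 11 mitotic lists, 0 were at least 1.5-fold higher in aged than in young members, where 1.26% of all 8267 compared genes were. At least 1.5-fold lower was 1, Pttg1, where 0.847% of all were. Both counts are near those shares, and they do not set the mitotic genes apart from the rest. The median log2 ratio was 0.03, and 119 of the 201 lay above 0, against 52.7% of all genes. After Pttg1 the lowest was Cenph, a kinetochore subunit, with 40.8 CPM in aged and 54.7 CPM in young members (log2 −0.42). The highest was Pkmyt1, a kinase that inhibits Cdk1, with 17.8 and 12.4 CPM (log2 0.49).

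Smaller differences ran both ways. Birc5 (survivin), of the chromosomal passenger complex, had 471 CPM in aged and 548 CPM in young members, a ratio of 0.860 (0.833 to 0.889). Aurka stood at 158 CPM in aged and 179 CPM in young members, and Ccnb2 (cyclin B2) at 170 and 190 CPM. Higher in aged members were Hjurp, the chaperone that loads centromeric histone (278 and 231 CPM in aged and young members), Mastl, a kinase that restrains a mitotic phosphatase (54.6 and 45.7 CPM), and Stil, a centriole assembly factor (39.6 and 33.1 CPM). None of these reached 1.5-fold.

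**Figure D4:**
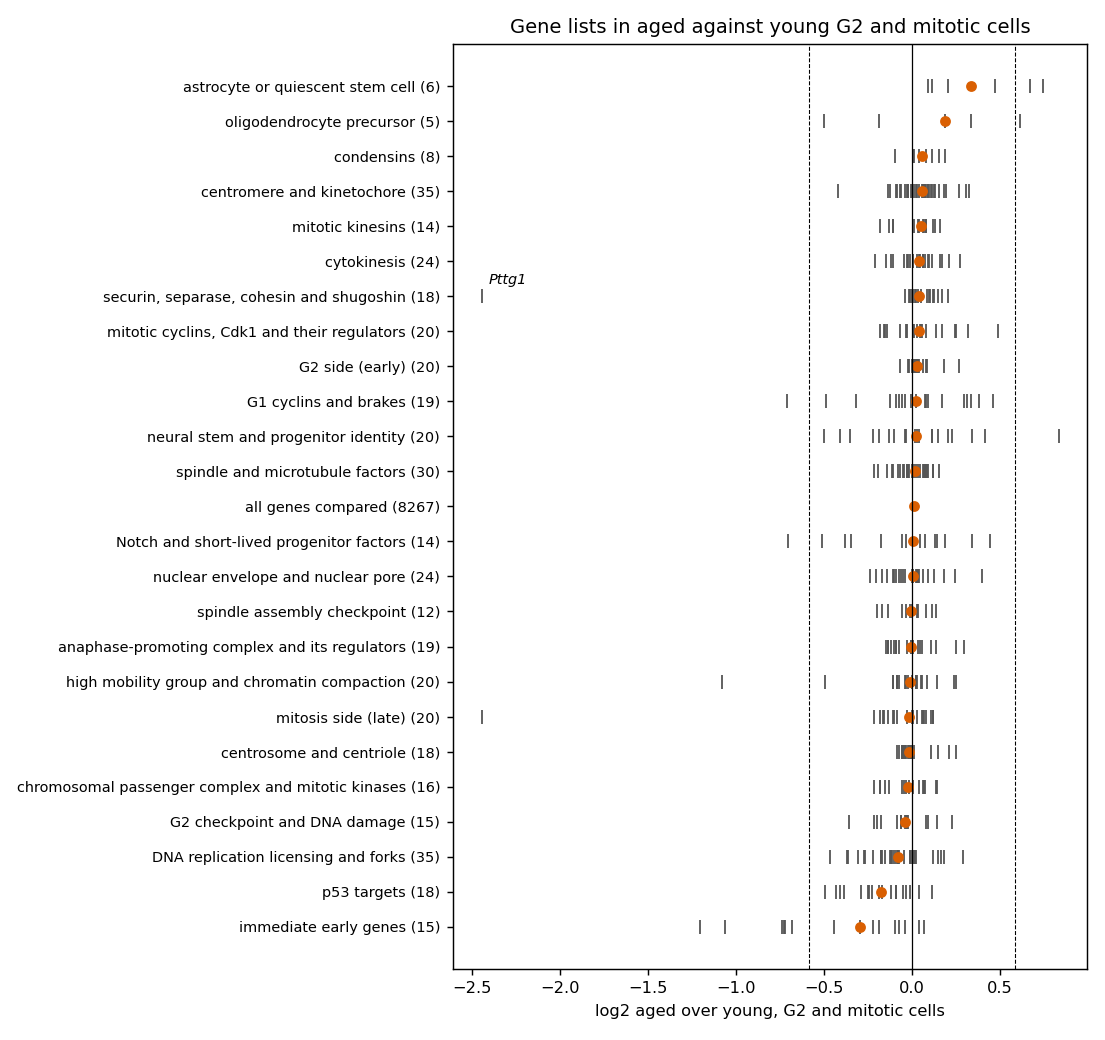
Log2 ratio of aged over young G2 and mitotic cells for the compared members of each gene list (ticks) and the median of the list (orange), with the number of genes in brackets and dashed lines at 1.5-fold. The mitotic lists lie within the dashed lines except for Pttg1 at −2.44, while the immediate early genes have the lowest median at −0.30 and the astrocyte list the highest at 0.34. The row for all compared genes shows only its median, at 0.01.

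Over all genes, 104 were at least 1.5-fold higher in aged members and 70 at least 1.5-fold lower. With a minimum of 20 CPM in place of 10 the lower set was 31.
At 2-fold they were 17 (0.206%) and 15 (0.181%). Many of the genes furthest apart differed in the other cells as well.

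Among those higher in aged members, Mef2c, a transcription factor of the MADS box family, had 156 CPM in aged and 61.6 CPM in young members, against 112 and 46.0 CPM in the other cells. Thy1, a surface glycoprotein, had 96.6 and 52.3 CPM in aged and young members, against 115 and 69.7 CPM. Mt3, the brain metallothionein, had 283 and 152 CPM, against 457 and 266 CPM. Also among the 12 highest were Kcnd2, Ifi27, Phyhipl, Atp1b2 and Dbx2, with log2 ratios in members between 0.83 and 1.09.

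For 3 of the 12 the gap in members was wider than in the other cells by over 0.5 on the log2 scale. Erf, a repressor downstream of ERK signalling, had 53.3 CPM in aged and 24.9 CPM in young members, against 46.5 and 32.5 CPM in the other cells. Tmem158, a transmembrane protein induced by Ras, had 98.5 and 48.0 CPM in members, against 109 and 78.0 CPM. Mical2, an actin oxidase, had 75.7 and 39.3 CPM in aged and young members, against 97.4 and 73.2 CPM. These differences of differences were not tested.

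Among those lower in aged members, Anxa3, an annexin, had 28.4 CPM in aged and 81.9 CPM in young members, against 56.5 and 149 CPM in the other cells. Cdkn2a, which encodes the cell cycle brakes p16 and p19, had 101 CPM in aged and 167 CPM in young members, against 118 and 223 CPM. Kitl, the ligand of the Kit receptor, had 51.8 and 92.6 CPM in aged and young members, against 54.6 and 96.8 CPM. Hes5, an effector of Notch signalling, had 64.3 and 106 CPM, against 74.1 and 109 CPM, and the receptor Notch1 89.4 and 128 CPM in aged and young members, against 87.5 and 110 CPM. Hes1, another effector, was nearly equal at 52.8 CPM in aged and 55.0 CPM in young members. Of 14 compared Notch and short-lived progenitor factors, 7 were higher and 7 lower in aged members, with a median log2 ratio of 0.008. Chl1, Cald1, Csgalnact1, Trp53i11 and Peg10 were also among the 12 lowest, with log2 ratios between −0.97 and −0.62.

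Immediate early genes, which respond to stimuli without new protein synthesis, were lower in aged members for 13 of 15 compared genes, with 6 of them at least 1.5-fold lower and a median log2 ratio of −0.30. Of all 8267 compared genes, 0.847% were at least 1.5-fold lower, 52.7% lay above 0 and the median was 0.01. In the other cells that median was −0.48. Egr1 had 123 CPM in aged and 205 CPM in young members, Ier3 30.5 and 64.7 CPM, Fos 23.5 and 39.9 CPM, and Fosb 6.28 and 15.7 CPM. Targets of p53 were lower for 16 of 18, with 0 at 1.5-fold, near the share of 0.847% over all genes. Their median was −0.18 in members and −0.22 in the other cells. Plk2, the furthest apart of them, had 57.8 CPM in aged and 81.9 CPM in young members, while Cdkn1a (p21), the brake that p53 induces, had 461 and 491 CPM.

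Of the 6 compared genes on the list for astrocytes and quiescent stem cells, 6 were higher in aged members and 2 of them by at least 1.5-fold. Over all compared genes, 52.7% were higher and 1.26% at least 1.5-fold higher. The median log2 ratio of the 6 genes was 0.34 in members and 0.25 in the other cells. Slc1a3, the glial glutamate transporter, had 592 CPM in aged and 371 CPM in young members, and Aldoc, a glycolytic enzyme of astrocytes, 56.3 and 33.3 CPM. The other 4 markers of that list, Gfap, Aqp4, S100b and Clu, were below 10 CPM in members of both libraries. Replication genes had 10 of 35 higher and 25 of 35 lower in aged members, where 52.7% of all compared genes were higher. None reached 1.5-fold, where 1.26% of all were higher and 0.847% lower by that much. The median of the replication genes was −0.08 in members and −0.09 in the other cells. Hmga2, a chromatin protein of fetal and young stem cells, had 8.92 CPM in aged and 19.9 CPM in young members, against 14 and 28.9 CPM in the other cells.

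The members were not uniform. Those of each library were ordered by the difference between their ranks for a G2 list and a mitosis list of 20 genes each. The G2 list held genes such as Top2a, Mki67 and Hjurp, and the mitosis list genes such as Cdc20, Ccnb1 and Ccnb2. The ordered cells were split into 3 groups of equal size. The groups, named G2 side, middle and mitosis side, held 155, 154 and 155 aged cells and 135, 135 and 136 young cells. Their median depth lay between 30135 and 37005.5 UMIs. The genes of the mitosis list did not all rise along the split. Cdc20 went from 334 CPM on the G2 side to 588 CPM on the mitosis side in aged cells. In young cells it went from 383 to 638 CPM. Tpx2 of the same list fell from 608 to 553 CPM in aged and from 559 to 522 CPM in young cells. Aurka was nearly flat, at 153 and 156 CPM in aged and 180 and 180 CPM in young cells. The names of the groups follow the lists and are not a measured stage.

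Apart from the genes of the split, 108 of 8095 genes (1.33%) were at least 1.5-fold higher on the mitosis side than on the G2 side in both libraries, and 174 (2.15%) were at least 1.5-fold lower. These counts come from the cells that were split, and describe what went with the order. The linker histone Hist1h1b stood at 292, 91.7 and 28.1 CPM in aged cells of the G2 side, middle and mitosis side, and at 311, 124 and 19.5 CPM in young cells. Fbxo5 (Emi1), which blocks the anaphase-promoting complex until mitosis, had 129, 87.1 and 59.4 CPM in the aged and 126, 85.5 and 60.1 CPM in the young groups. Esco2, which fastens cohesion in S phase, had 103, 78.2 and 45.9 CPM in aged and 108, 68.6 and 49.4 CPM in young cells. Dnmt1, which copies DNA methylation after replication, had 190, 121 and 81.5 CPM in aged and 188, 134 and 97.1 CPM in young cells. Transcripts of these S phase genes were thus highest on the G2 side and lowest on the mitosis side of both libraries.

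Several other transcripts followed the split as well. Malat1, an abundant nuclear RNA, had 26102, 24334 and 19049 CPM in the 3 aged groups and 24295, 20549 and 18068 CPM in the young groups. Gria2, an AMPA receptor subunit, had 514, 375 and 269 CPM in aged and 395, 295 and 184 CPM in young cells. Sox9, a transcription factor of glia and neural stem cells, had 215, 146 and 107 CPM in aged and 202, 162 and 113 CPM in young cells. In the opposite order were Ifitm3, an interferon-induced membrane protein, with 46.5, 108 and 141 CPM in aged and 48.7, 110 and 189 CPM in young cells, and Igfbp4, a binding protein of insulin-like growth factors, with 79.5, 172 and 174 CPM in aged and 67.9, 152 and 239 CPM in young cells. Apoe had 75.4, 163 and 139 CPM in aged and 89.4, 111 and 152 CPM in young cells.

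**Figure D5:**
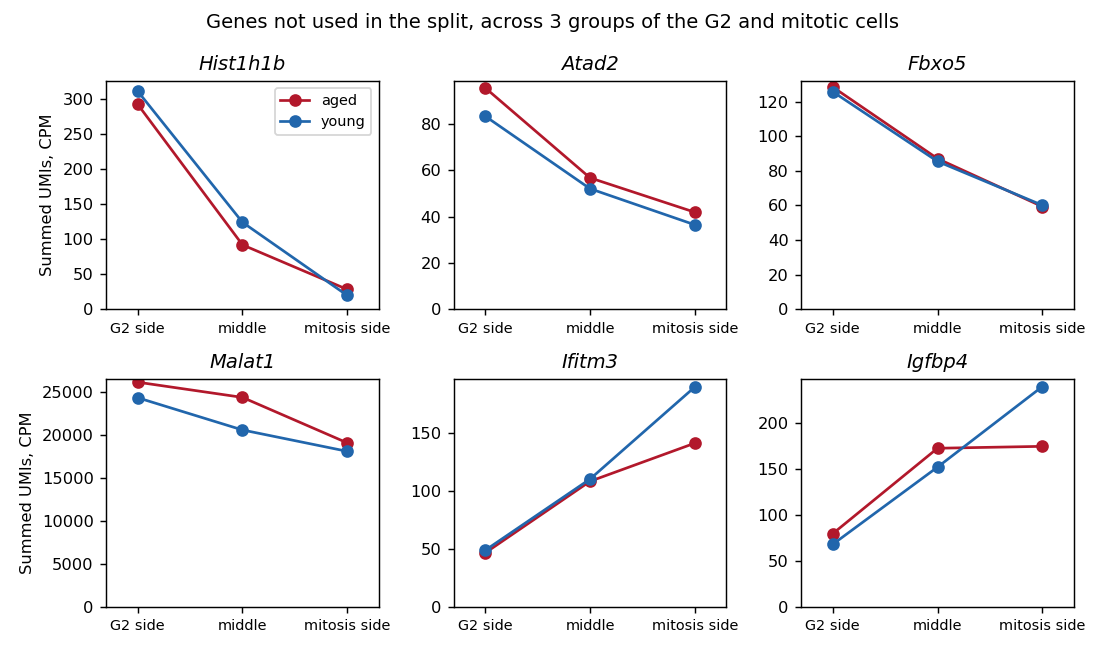
Summed UMIs as CPM of 6 genes not used in the split, in the G2 side, middle and mitosis side groups of the G2 and mitotic cells of the aged (red) and young (blue) library. Hist1h1b, Atad2, Fbxo5 and Malat1 are lower on the mitosis side than on the G2 side in both libraries, and Ifitm3 and Igfbp4 are higher there, with Ifitm3 at 141 CPM in aged and 189 CPM in young cells.

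Securin was not flat within the aged members. Since Pttg1 was 1 of the 20 mitosis genes, the cells were ordered again without it, an order chosen after its values had been seen. Pttg1 then stood at 21.2 CPM (17.3 to 25.6) on the G2 side, 36.2 CPM (31.4 to 41.5) in the middle and 41.6 CPM (36.3 to 47.4) on the mitosis side of the aged members. In young members the groups had 140 CPM (129 to 152), 185 CPM (173 to 198) and 230 CPM (216 to 245). Along this order Pttg1 rose from the G2 side in both libraries, with the aged level below the young level in each group. In aged members the intervals of the middle and the mitosis side overlapped. Cells were ordered within each library, so groups of the same name need not be at the same stage. In the first split, the median histone score on the G2 side was 418 CPM in aged and 90.1 CPM in young cells.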

How the data were processed

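Gene expression was measured in 1 aged and 1 young single-cell library. The values are unnormalized UMI counts of each gene in each barcode, as deposited. The submitters' processing notes name Cell Ranger 3.0.2 and the build mm10, and the counting annotation was not given in the sources used here. Python 3.11.15 with numpy 2.4.6, scipy 1.17.1 and pandas 2.3.3 was used. UMIs were summed by class and library and scaled to CPM. A gene was compared if it reached 10 CPM in either group, on a scale of log2(CPM + 1), which understates the change of low genes. Called genes passed a fold of 1.5 (aged over young members) or of 2 in both libraries (members over other cells). Sums have exact Poisson intervals and ratios exact conditional binomial intervals. No test or p-value was computed, since each age has 1 library. The comparison was tested on simulated data.

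Doublets were not removed. Members with more than 2 times the median UMIs were left out in an alternative, which left 459 aged and 404 young cells. Of 27998 gene identifiers 27645 were in the reference table of names, and 27 symbols that the deposited file holds as numbers were restored from it. The named genes are the 30 highest and 15 lowest in members against other cells (50 CPM in both libraries), the 12 highest and 12 lowest in aged against young members (50 CPM in either), leaving aside pseudogenes, models named Gm or Rik, and the genes of ribosomal proteins and of the mitochondrial genome. To these come the score genes, markers, the 4 members of every list furthest apart by age, and a short list fixed by name, of which 1 gene is not reported here. Nnt, Espl1, the genes of the split and further list members were chosen after their values were seen. The members, lists and tests were chosen with earlier results of these data known. Promoter sequences were taken from a RefSeq table by symbol, and 26 of the 30 leading genes had an entry.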

Additional observations from a re-analysis of the deposited data

Results flagged for a closer look

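The log2 ratio of G2 and mitotic cells over the other cells had opposite signs in the libraries for Pttg1, at −0.04 in the aged and 1.20 in the young library, a difference of −1.24. The counting interval of the aged ratio, 0.884 to 1.07, covers 1, so no direction is shown in the aged library. It was the only one of the named genes with opposite signs and a ratio past 1.5-fold in either library. The difference was not tested, because each age has 1 library. The aged value is close to 0, and with a mitochondrial limit of 10% it was 0.21, above 0, beside 1.01 in the young library.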

How the results depend on the processing

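No paired analysis was possible because each age has 1 library and the result comes from no test. Under the 6 alternatives on the choice of cells, the log2 ratio of the aged over the young share of members stayed above 0, down to 0.06 with ranks within each library. The set at least 1.5-fold higher in aged members grew to 295 genes with no CPM minimum, and the lower set was 31 at a minimum of 20 CPM and 248 with none. The genes 2-fold lower in members of both libraries numbered 23 at 20 CPM and 68 with no minimum. These minimums change the number of genes compared. The log2 ratio of Pttg1 in members over other cells (−0.04 aged and 1.20 young) was recomputed after its values were seen. It was 0.21 aged and 1.01 young with a mitochondrial limit of 10%, and 0.04 aged and 1.13 young with the mean of the cells' own CPM. The cause was not tested. Members had at most 33.8 CPM of Pttg1 in the aged and at least 183 CPM in the young library under every alternative run. For 146 named genes, 1543 of 1606 recomputed ratios by age lay within the counting interval of the reported value, 63 lay outside it and 0 changed sign past 1.5-fold. Depth limits genes near 10 CPM, and with 1 library per age the intervals say nothing of the spread between animals or cultures.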

Other observations

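Within the G2 and mitotic cells, the leading principal component of each library, computed from that library alone, held 4.10% of the variance of 3318 genes in aged and 4.26% of the variance of 3317 genes in young members. Of the 25 genes at each end, the libraries shared Ifitm3 and Igfbp2 at one end and Basp1, Cacng4, Gria2, Lhfpl3, Nnat and Olig1 at the other. Lhfpl3 and Olig1 are genes of oligodendrocyte precursors, and Igfbp2 encodes a binding protein of insulin-like growth factors. Across cells, Spearman's rho of the component with the summed oligodendrocyte precursor list was −0.67 over 464 aged and −0.72 over 406 young members, as a description, since both come from the same counts. With the mitochondrial share it was 0.60 in aged and −0.04 in young members, and with the astrocyte list 0.77 and −0.03. With the UMIs of the cell it was 0.37 in aged and 0.33 in young members, and with the M score −0.22 and −0.44, so depth and the score moved with the component in both libraries. Igfbp2 had 998 CPM in aged and 969 CPM in young members, against 1317 and 1372 CPM in the other cells, and Olig1 641 and 906 CPM in aged and young members, against 827 and 1195 CPM.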
